A study of Mus musculus with 3 samples.

Results

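The cells described here are keratinocytes of mouse dorsal skin that carried the hair matrix genes *Shh* and *Wif1*, and they are called matrix cells. They were chosen by their measured transcripts. A matrix cell had a transcript of at least 3 of 5 markers (*Shh*, *Wif1*, *Scube1*, *Kremen2* and *Tspear*). It also held at most 2 transcripts each of *Krt71*, the inner root sheath keratin, and *Krt35*, a hair cortex keratin, and none of *Ptprc*, the leukocyte antigen CD45. The rule found 570 of the 26847 cells that had at least 200 genes and at most 10% mitochondrial transcripts. All mice were female C3H/HeN mice aged 25 weeks, and each of the 3 groups was 1 library of the pooled dorsal skin of 7 to 8 mice. Neg was labelled as a negative (vehicle) control, and the series design describes its mice as unaffected. AA was skin of the alopecia areata model, in which hair loss follows the transfer of lymph node cells from affected donors. AA+Ab was skin of that model given an antibody against the chemokine CXCL12. Neg held 155 matrix cells, AA held 196 and AA+Ab held 219.

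The hair matrix is the pool of dividing cells at the base of a growing follicle, around the dermal papilla, whose daughters form the hair shaft and the inner root sheath. Sonic hedgehog, encoded by *Shh*, is secreted by a part of the matrix and received through a receptor whose gene *Ptch1* is itself switched on by the signal. Wnt signals through LEF1 direct hair shaft formation, and WIF1 is a secreted protein that binds Wnt ligands. Growing follicles normally show little MHC class I, and its gain with interferon signalling is a known feature of alopecia areata.

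Levels are counts of unique molecular identifiers (UMIs, each marking 1 captured transcript) summed over the matrix cells of a library and scaled to one fixed total per library, given as CPM. The matrix cells were deeply sequenced, with medians of 29888 UMIs per cell in Neg, 24922 in AA and 25866 in AA+Ab, against 13694.5, 11177 and 11371 over all kept cells. With 1 library per group no test between groups could be made. Ranges in brackets are exact 95% intervals that cover counting error only, and not differences between mice or preparations. No matrix cell shared its barcode with a matrix cell of another library, while 14 to 23 barcodes of all kept cells were shared by a pair of libraries.

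A group of 92 matrix cells stood apart from the others. Clustering of the 570 cells gave 8 sub-clusters, and the leading genes of sub-cluster 1 were *Krtdap*, *Krt77* and *Acta1*, 2 genes of the differentiating epidermis and the actin of skeletal muscle. Of its cells, 62 (67.4%) were taken as doublets by comparison with simulated doublets, against 0 to 3.28% in the other 7 sub-clusters. It held 35.0% of the matrix cell UMIs in Neg, 21.8% in AA and 16.5% in AA+Ab. Comparisons between libraries are therefore given with all matrix cells and with the 478 outside sub-cluster 1, a division chosen after seeing the data.

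The rule chose cells by 5 genes, so their levels are a description. *Shh* stood at 126 CPM in Neg, 170 in AA and 226 in AA+Ab, and at 139, 194 and 249 CPM outside sub-cluster 1. Since cells were chosen by it, these levels do not compare the libraries. *Wif1* was the most abundant of the 5, at 286, 475 and 465 CPM. *Scube1*, which encodes a secreted protein of a family that helps to release hedgehog, had 91.9, 99.4 and 113 CPM. *Kremen2*, a receptor for the Wnt inhibitors of the Dickkopf family, had 99.3, 120 and 137 CPM. *Tspear*, needed for tooth and hair follicle development, had 81.3, 156 and 91.7 CPM, highest in AA. In mm10, *Shh* lies on the reverse strand of chromosome 5 (28456815 to 28467256) and *Wif1* on the forward strand of chromosome 10 (121033960 to 121100650).

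**Figure D1:**
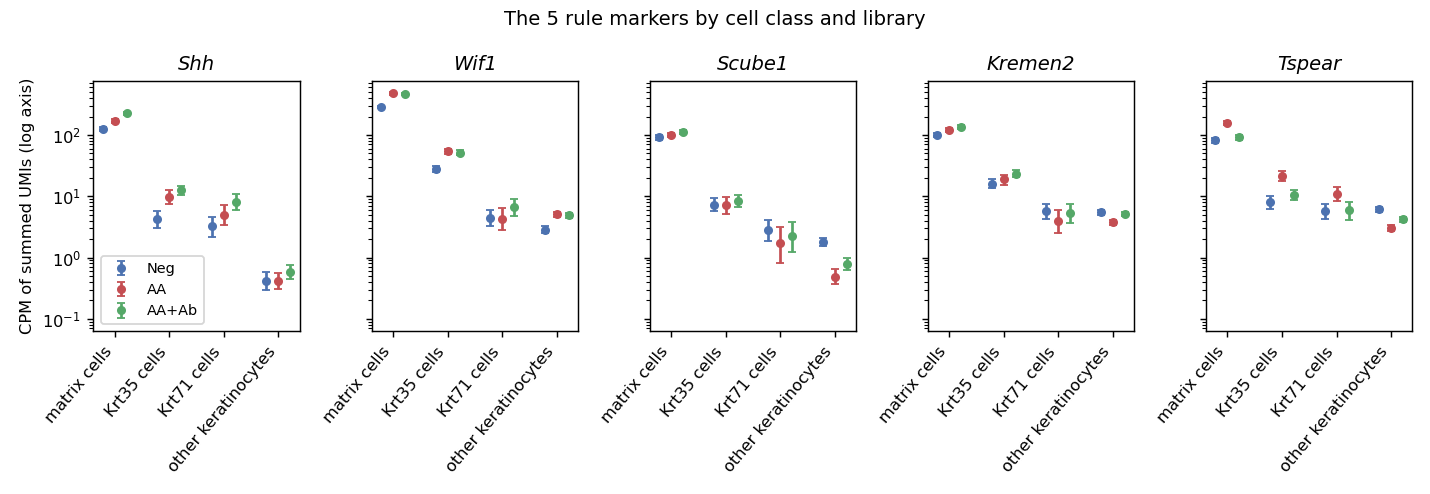
CPM of the 5 rule markers (log axis, 1 panel per gene) in the matrix cells, *Krt35* cells, *Krt71* cells and other keratinocytes of each library, with exact 95% Poisson intervals. *Shh* stands at 126 to 226 CPM in matrix cells and at 0.414 to 0.580 CPM in other keratinocytes.

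Most matrix cells carried *Shh* and *Wif1* together. Both were found in 88 cells of Neg, 124 of AA and 154 of AA+Ab, and neither in 2, 1 and 2 cells. *Shh* was found in 65.8%, 68.4% and 75.3% of matrix cells, or in 33.5%, 42.5% and 45.8% when each cell was thinned to 5000 UMIs. Among T-like cells, which should lack *Shh* and had medians of 4533.5 to 5718 UMIs, the share with a *Shh* transcript was 0.39% in Neg, 0.23% in AA and 2.63% in AA+Ab. *Wif1* was found in 89.7%, 94.4% and 94.1% of matrix cells, and in 9.43%, 12.6% and 39.3% of fibroblast-like cells, whose median UMI counts were 8673, 6072 and 8376.5. The fibroblast-like cells also held dermal papilla markers, at 291, 646 and 2292 CPM. Whether their *Wif1* was their own or came from other cells was not tested.

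Matrix cells made up a small share of each library. They were 2.35% of kept cells in Neg (2.002 to 2.751), 1.88% in AA (1.63 to 2.16) and 2.23% in AA+Ab (1.94 to 2.54). The log2 ratio of AA to Neg was −0.33 (−0.64 to −0.01). Cells of Neg were deeper, and when the rule was applied to cells thinned to 5000 UMIs the shares were 0.870%, 0.940% and 1.19%, with a log2 ratio of AA to Neg of 0.11 (−0.41 to 0.64). That setting left out 720 cells of Neg, 1395 of AA and 1456 of AA+Ab that held fewer UMIs. Of the sum of matrix cells, *Krt71* cells (inner root sheath keratin) and *Krt35* cells (cortex keratin), matrix cells were 21.3% in Neg, 27.3% in AA and 26.2% in AA+Ab.

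The edge of the rule was gradual. Cells with 3 of the 5 markers numbered 60 in Neg, 74 in AA and 71 in AA+Ab, and cells just outside, with 2 markers, numbered 206, 180 and 241. *Lef1*, the nuclear partner of Wnt signalling, had 496, 788 and 551 CPM in cells with 3 markers and 339, 704 and 538 CPM in those with 2. *Cdh6*, a cadherin, had 332, 511 and 529 CPM with 3 markers and 99.6, 176 and 112 CPM with 2. *Krt14*, the keratin of basal epidermis and outer root sheath, had 1670, 1148 and 1312 CPM with 3 markers and 3034, 1605 and 2203 CPM with 2. Of 6626 genes, 36 (0.543%) were at least 2-fold higher in matrix cells than in cells with 2 markers in all 3 libraries and 68 (1.03%) at least 2-fold lower.

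Genes outside the rule also set the matrix cells apart from other keratinocytes, the cells with *Krt5* or *Krt14* that were neither matrix, *Krt71* nor *Krt35* cells. The 627 cells with 2 markers, the nearest to the rule, were left out of this class as well, so the ratios are to cells further from the rule. In all 3 libraries 428 of 6530 genes (6.55%) were at least 2-fold higher in matrix cells and 523 (8.01%) at least 2-fold lower. Among the highest ratios outside the rule was that of *Kcnip1*, a potassium channel interacting protein, at 84.3, 84.2 and 84.9 CPM in Neg, AA and AA+Ab against 0.663 to 1.65 CPM. *Aim2*, a sensor of cytosolic DNA, had 69.7, 118 and 103 CPM in matrix cells and 1.65 to 2.29 CPM in other keratinocytes. *Tnf*, the inflammatory cytokine, had 101, 148 and 145 CPM against 3.35 to 4.87 CPM, a log2 ratio of 4.46 to 5.44. Cells with 2 markers lay between, with 41.9, 40.9 and 34.7 CPM of *Tnf* and 36.1, 32.1 and 18.8 CPM of *Aim2*. *Cdh6* had 555, 543 and 592 CPM, a log2 ratio of 4.505 to 5.318. *Sp6*, a transcription factor of teeth and hair, was higher by log2 ratios of 3.75 to 4.51. *Crabp1*, a retinoic acid binding protein, was higher by 3.74 to 4.49, but cells with 2 markers held 55.3, 165 and 124 CPM of it against 62.8, 96.9 and 79.2 CPM in matrix cells.

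*Tnf* transcripts were spread over many matrix cells. They were found in 61.3%, 68.4% and 68.5% of them, or in 36.1%, 42.0% and 42.1% at 5000 UMIs per cell. The share was 2.85 to 4.17% in other keratinocytes (medians of 11020 to 13024 UMIs) and 3.77%, 2.797% and 0% in fibroblast-like cells. T-like cells, which express *Tnf*, had 17.6%, 45.0% and 27.99%. *Aim2* was found in 86, 98 and 116 matrix cells. *Ptprc* was absent from every matrix cell by the rule, and the summed level of the 6 T cell markers in matrix cells was 17.96, 8.29 and 11.2 CPM.

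Fewer genes separated the matrix cells from the cells of the follicle's differentiating layers. Unlike other keratinocytes, those classes could include cells with 2 or more rule markers, so the numbers are not on equal terms. Against *Krt71* cells, 195 of 6480 genes (3.01%) were at least 2-fold higher in matrix cells in all 3 libraries and 94 (1.45%) lower. Against *Krt35* cells these numbers were 129 (2.01%) and 46 (0.717%) of 6418. *Wnt10b*, a Wnt ligand, had 68.5, 91.7 and 96.3 CPM in matrix cells of Neg, AA and AA+Ab and 1.30 to 2.75 CPM in *Krt71* cells. *Tnf* was at 5.38 to 8.07 CPM in *Krt71* cells and at 17.6 to 22.8 CPM in *Krt35* cells. *Irx4*, a homeobox gene, had 72.5, 96.7 and 107 CPM in matrix cells and 4.27 to 6.12 CPM in *Krt35* cells. On the lower side, *Foxe1*, a transcription factor gene of the hair follicle, had 6.74 to 11.8 CPM in matrix cells and 88.2 to 102 CPM in *Krt71* cells. *Selenbp1*, which encodes a selenium binding protein, had 2.21 to 5.63 CPM in matrix cells and 214 to 491 CPM in *Krt35* cells.

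The hedgehog pathway was present from ligand to target. Besides *Shh*, *Disp1*, the transporter that releases the ligand from the cell, stood at 16.7, 27.2 and 17.7 CPM. The receptor gene *Ptch1*, also a target of the signal, stood at 63.4, 106 and 87.7 CPM, and the target *Gli1* at 16.2, 22.9 and 21.7 CPM. *Gli1* was above other keratinocytes by log2 ratios of 1.31, 2.10 and 1.79. *Smo*, the signal transducer, was near their level, with log2 ratios of −0.10, 0.19 and 0.20. *Hhip*, a target that binds the ligand, had 0, 1 and 1 transcripts outside sub-cluster 1.

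Between libraries no tested gene of the 3 hedgehog lists passed 2-fold in AA against Neg, where 1.14% of the 6498 genes tested did so in either direction. None passed in AA+Ab against AA (1.48% of all genes) or in AA+Ab against Neg (1.91%) either. *Shh* and *Scube1* of the rule are among these genes, and their levels do not compare the libraries. *Ptch1* had a log2 ratio of AA to Neg of 0.74 (0.55 to 0.94), or 0.56 outside sub-cluster 1. The 3 *Gli* genes summed to 211, 303 and 204 CPM. The median log2 ratio of all tested genes was 0.10.

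Wnt ligands and receptors were led by *Lrp4*, a co-receptor that also binds Wnt antagonists, at 133, 205 and 207 CPM, and by *Wnt4*, at 147, 155 and 169 CPM. *Wnt10b* and *Wnt6* were above other keratinocytes by log2 ratios of 3.08 to 4.35 and 1.74 to 2.72, while *Wnt10a*, at 48.9, 52.2 and 48.3 CPM, had log2 ratios of −0.39, −0.21 and −0.34. *Lef1* stood at 540, 825 and 690 CPM, against which *Axin2*, a general Wnt target, had 43.7, 43.0 and 37.4 CPM. The 13 Wnt inhibitors summed to 934, 1291 and 1200 CPM, much of it *Wif1* of the rule. *Dkk4*, an inhibitor found in follicle buds, was rare, with 5.81, 17.2 and 5.10 CPM in matrix cells and 0.0460 to 0.0603 CPM in other keratinocytes, and *Dkk1* was not detected. Of 12 tested receptors 1, *Lgr5*, a marker of bulge and lower follicle stem cells, passed 2-fold, at 20.6, 49.7 and 13.1 CPM. It was higher in AA than in Neg, as 0.246% of all tested genes were. It was lower in AA+Ab than in AA, as 1.26% were. Outside sub-cluster 1 *Lgr5* had 20.8, 29.8 and 7.33 CPM, a log2 ratio of AA to Neg of 0.52 in place of 1.27. No tested gene among the Wnt ligands (6 of 9 tested), inhibitors (5 of 13) and targets (6 of 10) passed 2-fold in any comparison. Over all tested genes, 1.14% to 1.91% did so in either direction, depending on the comparison. *Kremen2* among the receptors and *Wif1* among the inhibitors are markers of the rule, so their levels do not compare the libraries.

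Genes of the BMP, Notch, ectodysplasin and FGF pathways were also found, and none of those tested (13 of 17, 7 of 12 and 5 of 9 genes) passed 2-fold between libraries. Among all tested genes the share past 2-fold was 1.14% to 1.91%, depending on the comparison. *Bmp4*, a ligand of the matrix and papilla, had 64.3, 77.1 and 76.5 CPM, and *Bmpr1a*, the receptor that hair shaft differentiation requires, had 174, 211 and 168 CPM. The inhibitors *Nog* and *Grem1*, made by the mesenchyme, had at most 1 transcript per library. *Id1*, *Id2* and *Id3*, targets of BMP signals, were lower in AA+Ab than in AA by log2 ratios of −0.46, −0.81 and −0.58, with 313, 201 and 658 CPM in AA and 226, 115 and 440 CPM in AA+Ab. Over the BMP list the median for AA+Ab to AA was −0.45, against −0.03 for all genes. Beside this, the immediate-early and heat-shock list had a log2 ratio of −0.59 in the same comparison. *Id3* was concentrated in sub-clusters 4 and 7, which held 40 and 24 of the 196 matrix cells of AA and 21 and 10 of the 219 of AA+Ab. Within sub-clusters its level was lower in AA+Ab than in AA in each but sub-cluster 6. There it was 329 CPM in AA and 501 in AA+Ab. Sub-clusters 4 and 7 had 931 and 834 CPM, and 1222 and 1009 CPM. Sub-clusters 8 and 5 had 867.6 and 451.3 CPM, and 596 and 433 CPM. In sub-clusters 1, 2 and 3 the levels were 472 and 322, 354 and 302, and 234 and 202 CPM. The Notch list summed to 583, 599 and 504 CPM. *Notch1*, the receptor that acts in inner root sheath and shaft precursors, had 124, 125 and 118 CPM. *Edar*, the ectodysplasin receptor, had 61.1, 108 and 81.4 CPM and stood above other keratinocytes by log2 ratios of 3.56 to 4.18.

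Transcription factors of the matrix were found with the rule markers. Of the 22 matrix genes listed outside the rule, 19 could be set against other keratinocytes, and 9 were at least 2-fold higher and 3 at least 2-fold lower in all 3 libraries, where 6.55% and 8.01% of all genes were. *Msx2* and *Dlx3*, homeobox genes of hair shaft formation, had 88.7, 102 and 120 CPM and 93.8, 119 and 118 CPM. *Hoxc13*, which drives hair keratins, had 56.7, 81.5 and 68.6 CPM, and *Trps1*, a repressor mutated in a syndrome of sparse hair, had 440, 473 and 333 CPM. Between AA and Neg, 0 of the 17 tested matrix genes passed 2-fold, against 1.14% of all genes, and their median log2 ratio was 0.27. In AA+Ab against Neg 1 of the 17, *Vdr*, the vitamin D receptor gene, was at least 2-fold lower, at 52.1, 37.0 and 25.7 CPM, where 1.79% of all genes were lower.

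Keratins of the early inner root sheath were found beside basal keratins, which were lower than in other keratinocytes. *Krt25*, *Krt27* and *Krt28*, the first keratins of the inner root sheath, had 332, 294 and 318 CPM, 161, 197 and 215 CPM, and 203, 231 and 308 CPM. *Krt5* and *Krt14* were below other keratinocytes by log2 ratios of −1.62 to −2.04 and −1.76 to −2.72. Much of what was found lay in sub-cluster 1, since *Krt14* went from 1889, 1202 and 1034 CPM to 408, 585 and 443 CPM outside it and *Krt5* from 1123, 880 and 853 CPM to 502, 644 and 587 CPM. *Dcn*, the proteoglycan decorin, had 993, 1480 and 1541 CPM, above other keratinocytes by log2 ratios of 2.42 to 2.82, while the collagen gene *Col1a1* of fibroblasts had 4.22, 1.16 and 0.51 CPM.

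Genes of the cell cycle were higher in matrix cells than in other keratinocytes. The 20 G2/M genes summed to 4974, 5013 and 5479 CPM, against 2087, 1559 and 2168 CPM in other keratinocytes, and 19 of the 20 were at least 2-fold higher in all 3 libraries, where 6.55% of all genes were. The 20 S phase genes summed to 1640, 1713 and 1944 CPM against 821, 646 and 842 CPM, with 12 genes past 2-fold. *Mki67*, the proliferation antigen, was found in 89.7%, 88.3% and 88.6% of matrix cells and in 18.9%, 7.69% and 12.5% of fibroblast-like cells. At 5000 UMIs per cell it was found in 60.6%, 68.9% and 70.1%, and in 18.6%, 14.0% and 18.4% of other keratinocytes. Between libraries no gene of either list passed 2-fold, where 1.14% to 1.91% of all tested genes did, depending on the comparison.

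**Figure D2:**
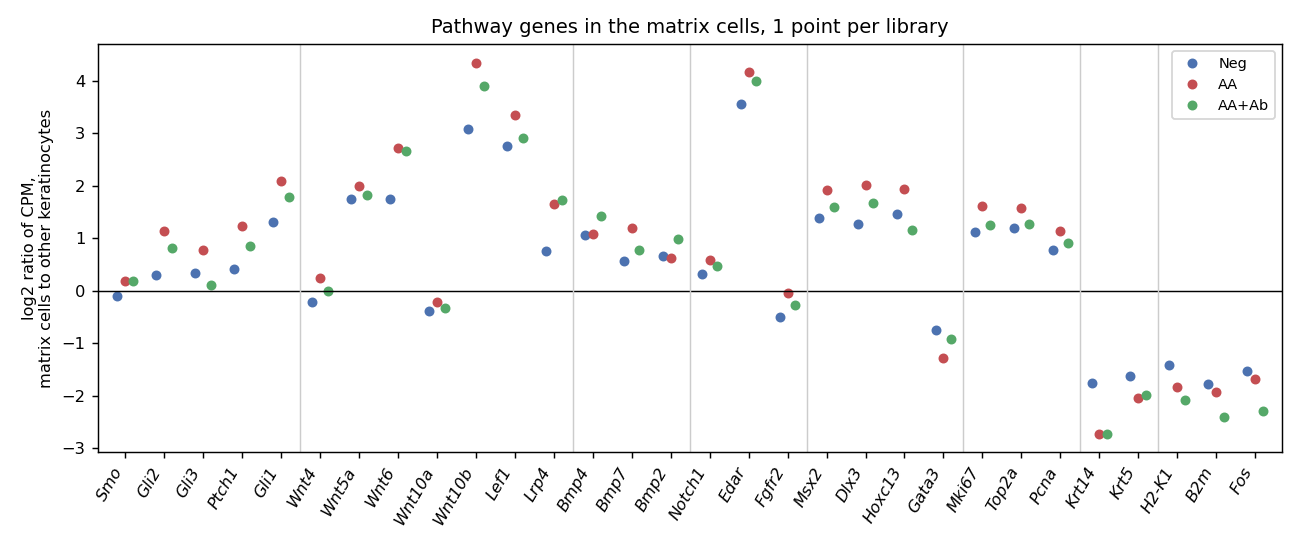
Log2 ratio of CPM, matrix cells to other keratinocytes, for 30 pathway genes, with 1 point per library and lines between gene groups. *Wnt10b*, *Lef1* and *Edar* stand above 2 in every library, *Smo* stands near 0, and *Krt14*, *Krt5*, *H2-K1*, *B2m* and *Fos* stand below 0.

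Within the matrix cells, those rich in *Shh* and those without it were set side by side as a description, since *Shh* is a marker of the rule and a cell without it entered through the other markers. The genes given first were named because they differed in the same direction in each library, and not all genes did. Cells with at least 5 *Shh* transcripts numbered 45 in Neg, 51 in AA and 79 in AA+Ab, and cells with none numbered 53, 62 and 54. *Lrp4* had 238, 505 and 368 CPM in the first and 64.5, 76.4 and 94.6 CPM in the second. *Ptch1* had 93.0, 178 and 115 CPM against 45.9, 67.1 and 83.0 CPM, and *Krt28* had 268, 408 and 421 CPM against 120, 112 and 150 CPM. *Wnt10b* had 109, 158 and 141 CPM against 45.4, 59.7 and 53.1 CPM.

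*Gli3*, the hedgehog effector that acts mainly as a repressor, went the other way, at 83.0, 110 and 92.8 CPM in *Shh*-rich cells and 222, 374 and 227 CPM in cells without *Shh*. *Hoxc13* did so as well, at 31.9, 63.8 and 55.1 CPM against 86.0, 113 and 98.0 CPM. *Lef1* differed little, by log2 ratios of 0.40, 0.28 and 0.19. *Cdh6* (1.81, −0.15 and 0.48), *Kcnip1* (1.28, −0.15 and 0.02) and *Aim2* (0.53, −0.23 and −0.50) went both ways. Across cells thinned to 5000 UMIs, Spearman's rho with *Shh* was 0.46, 0.37 and 0.40 for *Lrp4* in 155 cells of Neg, 193 of AA and 214 of AA+Ab, which share a library and hence its free RNA. It was 0.35, 0.33 and 0.23 for *Krt28*, but only 0.15, 0.14 and 0.12 for *Ptch1*, 0.10, 0.13 and 0.13 for *Gli1* and 0.11, 0.09 and 0.26 for *Lef1*, too weak at equal depth to be read as a relation.

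The 7 sub-clusters other than sub-cluster 1 each drew cells from every library. Because clustering used these genes, their levels are a description. Sizes were not tested between libraries, and those of sub-clusters 4 and 7 in AA and AA+Ab are given above beside *Id3*. Sub-cluster 3 (81 cells) had the most *Lrp4* (553 CPM), *Edar* (252 CPM), *Wif1* (935 CPM) and *Dcn* (3363 CPM). *Shh* there was 279, 564 and 639 CPM in Neg, AA and AA+Ab, the highest of the 8 in AA and AA+Ab, whereas in Neg sub-cluster 4 was higher at 342 CPM. Sub-cluster 5 (68 cells) was led by *Zfp750*, *Rerg* and *Notch1*, with *Notch1* at 444, 622 and 555 CPM and *Cdh6* at 2315, 1573 and 1924 CPM, and held *Nrarp*, a Notch target, at 140 CPM. *Gata3*, a factor of the inner root sheath, was at 414 CPM there.

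Sub-cluster 8 (48 cells) was led by *Soat1*, *Gpnmb* and *Krt75*, the last a keratin of the companion layer and medulla at 249, 208 and 229 CPM. It also had *Kitl*, the ligand that melanocytes need, at 850, 981 and 1127 CPM, and the most *Hoxc13* (243 CPM). Sub-cluster 2 (88 cells) was led by *Rbms3* and *Kcnip1* and had *Aim2* at 240, 341 and 247 CPM. Sub-clusters 4 (75 cells) and 7 (57 cells) were rich in early response genes, with sums of 11504 and 10808 CPM over 10 immediate-early and heat-shock genes, and had *Id3* at 895 and 1319 CPM. Sub-cluster 6 (61 cells) had *Cth* and *Phgdh*, enzymes of amino acid synthesis, among its leading genes, by log2 ratios of 0.99 and 0.86. The 20 G2/M genes summed to 3348 CPM in sub-cluster 5 and to 7083 CPM in sub-cluster 3.

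**Figure D3:**
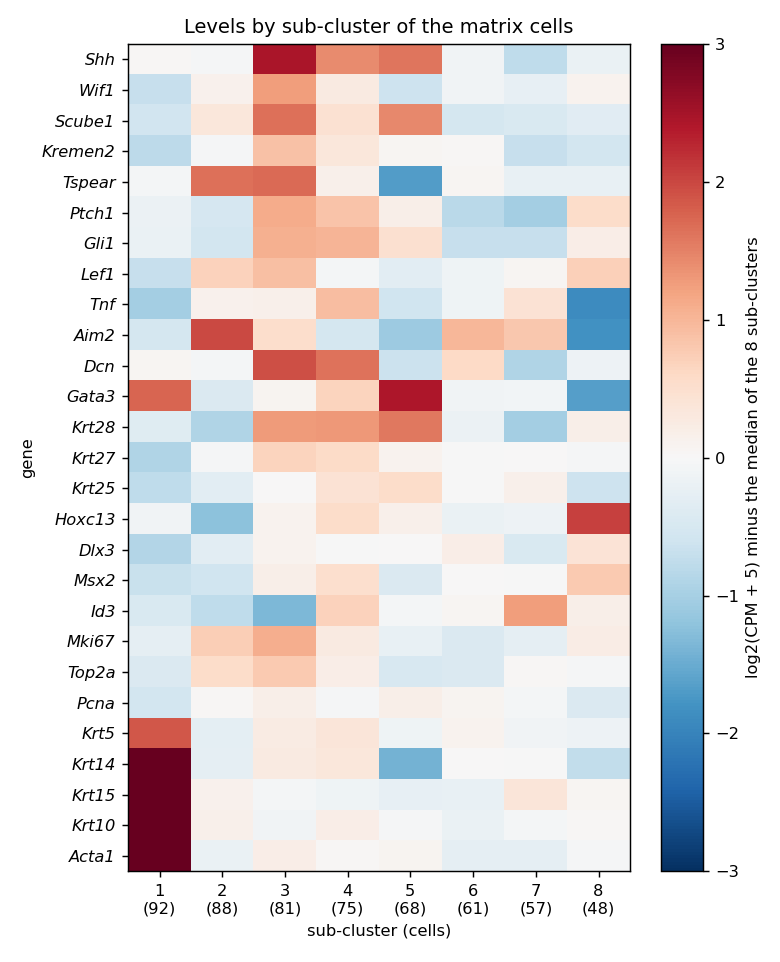
Levels of 27 genes in the 8 sub-clusters of the matrix cells (columns, with cell numbers), shown as log2(CPM + 5) minus the median of the 8. *Shh* and *Wif1* are highest in sub-cluster 3, and *Krt14*, *Krt15*, *Krt10* and *Acta1* in sub-cluster 1.

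The first comparison between libraries sets the model against the control. Of 6498 genes with a mean of at least 20 CPM, 16 (0.246%) were at least 2-fold higher in AA and 58 (0.893%) at least 2-fold lower, and 91.7% lay within 0.5 of 0 on the log2 scale. The lowest ratios belonged to genes of other tissues. *Acta1* had 671 CPM in Neg, 13.9 in AA and 6.46 in AA+Ab, but 97.3% of its transcripts in Neg came from 1 cell, and the log2 ratio of AA to Neg moved from −5.60 to −0.45 without the top cell of each library. *Krt10*, a keratin of the suprabasal epidermis, had 1026, 54.3 and 268 CPM, and outside sub-cluster 1 it had 61.2, 49.1 and 48.4 CPM. All 4 tested suprabasal markers were at least 2-fold lower in AA than in Neg. Outside sub-cluster 1, where 6390 genes were tested, 21 (0.329%) were higher in AA and 11 (0.172%) lower, 0.501% in all.

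**Figure D4:**
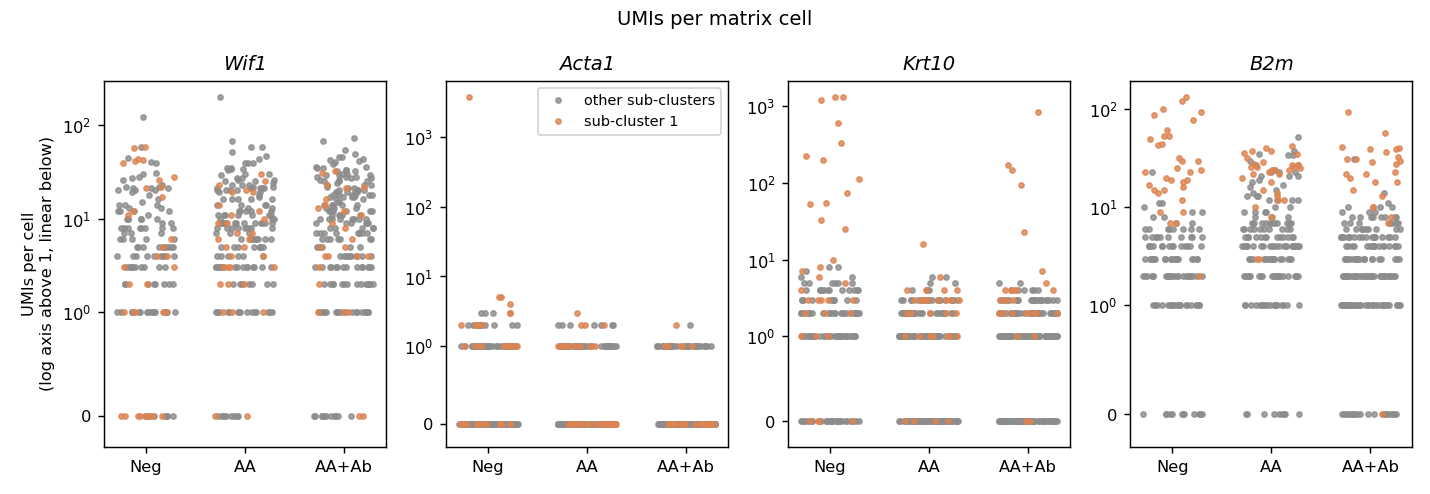
UMIs per matrix cell of *Wif1*, *Acta1*, *Krt10* and *B2m* in each library (log axis above 1, linear below), with cells of sub-cluster 1 in orange and the others in grey. High *Acta1* comes from 1 cell of Neg, and high *Krt10* from cells of sub-cluster 1, while *Wif1* is spread over both.

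The genes highest in AA against Neg included immune genes and secreted factors. *Cxcl9*, a chemokine induced by interferon-γ, had 10.0, 37.0 and 23.1 CPM, a log2 ratio of 1.88 (1.45 to 2.34), and 35.4% of its AA transcripts came from 1 cell. *Pglyrp2*, a peptidoglycan recognition protein, had 9.86, 34.5 and 27.7 CPM, a log2 ratio of 1.81 (1.37 to 2.27). *Stc1*, the secreted hormone stanniocalcin, had 18.1, 69.8 and 25.7 CPM, a log2 ratio of 1.94 (1.62 to 2.27). *Bst2*, an antiviral membrane protein induced by interferon, had 12.5, 33.9 and 17.8 CPM. These 4 genes also differed by at least 2-fold outside sub-cluster 1, by log2 ratios of 2.12, 1.70, 1.64 and 1.55 in the same order. *Tlx3*, a homeobox gene, had 9.74, 43.9 and 10.2 CPM there.

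Interferon response genes were higher in AA than in either other library. The 20 genes summed to 259 CPM in Neg, 467 in AA and 255 in AA+Ab, a log2 ratio of 0.85 (0.75 to 0.94) for AA to Neg and −0.88 (−0.97 to −0.78) for AA+Ab to AA. Only 4 of them had enough transcripts to be tested, of which 2 were at least 2-fold higher in AA than in Neg, where 0.246% of all genes were, and their median log2 ratio was 1.17 against 0.10 for all genes. Over the 20 genes, 17 had a ratio above 0 in AA against Neg, and all 19 with a value were lower in AA+Ab than in AA. *Irf1*, a transcription factor of the interferon response, had 70.6, 131 and 77.3 CPM, and *Cxcl10*, a chemokine for T cells, had 87.3, 124 and 72.9 CPM.

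The interferon list was also measured in the other classes and within sub-clusters. *Cxcl10* was above other keratinocytes, which had 9.38, 19.4 and 8.55 CPM, in all 3 libraries. Without *Irf1* and *Cxcl10* the list summed to 102, 213 and 104 CPM. Other keratinocytes had 245, 651 and 317 CPM over the 20 genes, with a log2 ratio of AA to Neg of 1.41 (1.39 to 1.43), while *Krt71* cells had 0.59 and *Krt35* cells 0.47. In sub-cluster 2 the list stood at 160, 767 and 161 CPM. Its Neg part was 16 cells, with a cell of 206017 UMIs among them. In AA, 44 of its 119 *Cxcl10* transcripts came from a single cell. The order of the libraries was not the same everywhere, since AA was below Neg in sub-cluster 6, at 234 against 271 CPM, and AA+Ab was above AA in sub-cluster 7, at 593 against 517 CPM.

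MHC class I genes gave different answers with and without sub-cluster 1. Over all matrix cells the 12 genes summed to 1313, 1408 and 1032 CPM, a log2 ratio of AA to Neg of 0.10 (0.05 to 0.15). Outside sub-cluster 1 they summed to 613, 1121 and 723 CPM, a log2 ratio of 0.87 (0.80 to 0.94) for AA to Neg and −0.63 (−0.70 to −0.57) for AA+Ab to AA. There, 7 of the 12 genes were tested, 7 had a ratio of AA to Neg above 0, and 2 of them passed 2-fold, as 0.329% of all genes did, with a median of 0.89 against 0.06 for all genes. AA was above Neg in all 7 sub-clusters other than 1, with 426 CPM in AA and 387 in Neg in sub-cluster 8, and 1490 and 786 CPM in sub-cluster 2. The Neg value of sub-cluster 2 rests on the 16 cells given above. AA+Ab was below AA in the same 7. In sub-cluster 1 the libraries had 2613, 2434 and 2594 CPM.

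The single genes followed the sum. Outside sub-cluster 1 *B2m*, the shared light chain, had 105, 276 and 131 CPM, *H2-K1* had 137, 254 and 142 CPM, and *H2-D1* had 80.7, 174 and 98.7 CPM. *Psmb8* and *Psmb9*, subunits of the immunoproteasome, had 5.68, 33.8 and 9.36 CPM and 11.9, 32.0 and 11.6 CPM. Levels stayed far under those of other keratinocytes, in which the list summed to 3480, 4494 and 3803 CPM. Beside these values, *Krt14* outside sub-cluster 1 was also higher in AA, at 408, 585 and 443 CPM, whereas *Krt15* was at 60.9, 62.4 and 50.3 CPM. Macrophage and dendritic cell markers summed to 13.8, 29.8 and 33.0 CPM and T cell markers to 9.74, 7.89 and 8.35 CPM. The part of free RNA from other cells in the MHC class I and interferon values was not tested.

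**Figure D5:**
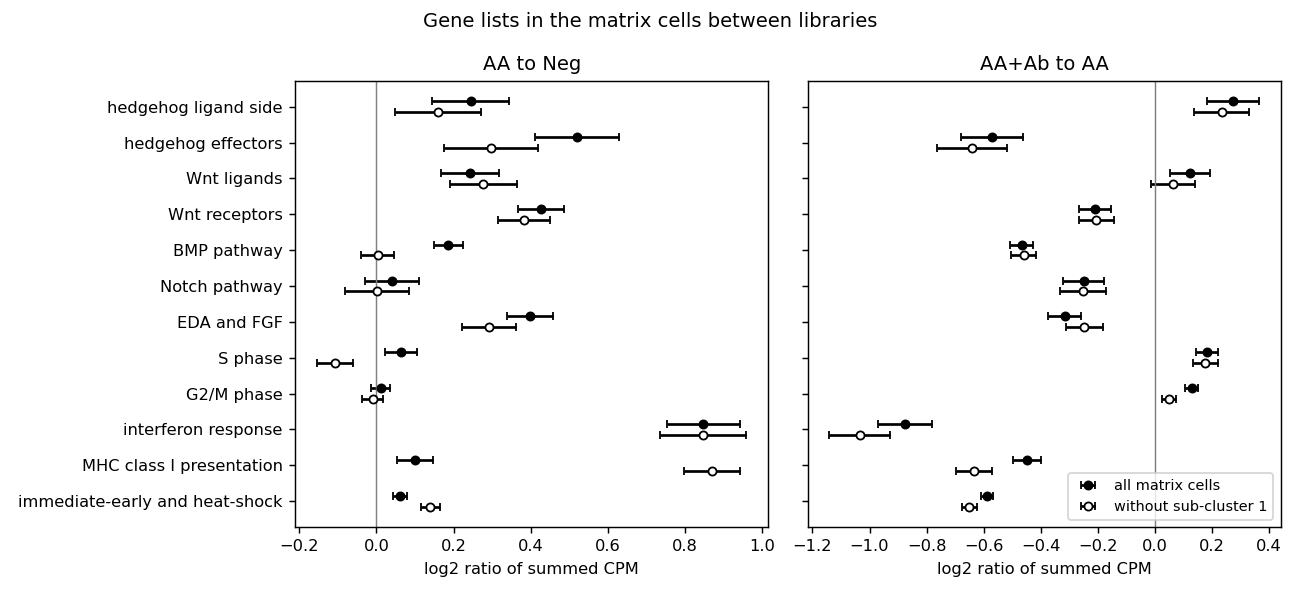
Log2 ratio of the summed CPM of 12 gene lists in matrix cells, for AA to Neg (left) and AA+Ab to AA (right), with exact 95% intervals for counting error, over all matrix cells (filled) and without sub-cluster 1 (open). MHC class I moves from 0.10 to 0.87 for AA to Neg when sub-cluster 1 is left out, while the interferon list stays at 0.85. The hedgehog ligand and Wnt receptor lists hold markers of the rule.

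The second comparison sets the antibody library against AA. Of the 6498 genes, 14 (0.215%) were at least 2-fold higher in AA+Ab and 82 (1.26%) at least 2-fold lower, or 8 (0.125%) and 65 (1.02%) of 6390 outside sub-cluster 1. Among the lower ones were 2 heat-shock genes and *Phlda1*. *Hspa1a* had 681, 833 and 290 CPM, *Hsph1* had 142, 245 and 78.7 CPM, and *Phlda1*, an early growth factor response gene, had 53.5, 92.9 and 22.8 CPM. Of the 10 immediate-early and heat-shock genes, 1 (*Hspa1a*) was at least 2-fold lower, against 1.26% of all genes, and 3 were outside sub-cluster 1. All 10 had a ratio below 0, with a sum of 8084, 8433 and 5604 CPM and a log2 ratio of −0.59 (−0.61 to −0.57), against −0.21 in other keratinocytes. The list was richest in sub-clusters 4 and 7, whose part of the matrix cells was smaller in AA+Ab, as given beside *Id3*. Within sub-clusters the list was lower in AA+Ab in each but sub-cluster 6, which had 2814 CPM in AA and 4877 in AA+Ab. It stood at 12045 and 10602 CPM in sub-cluster 4 and at 10631 and 7995 CPM in sub-cluster 7. Sub-clusters 2 and 8 had 4261 and 2508 CPM, and 6415 and 4172 CPM. Sub-clusters 5 and 3 had 6451 and 5286 CPM, and 3334 and 2681 CPM. Handling of the single preparations and the antibody treatment cannot be told apart.

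Few genes were higher in AA+Ab. *Hoxd8*, a homeobox gene, had 12.2, 17.5 and 41.5 CPM, a log2 ratio to AA of 1.24 (0.89 to 1.60). It was higher in AA+Ab outside the matrix cells too, at 2.75, 2.85 and 8.11 CPM in other keratinocytes. Most of the other genes highest in AA+Ab against AA were epidermal, such as *Krt77* and *Spink5*, and 80.1% and 66.4% of their AA+Ab transcripts came from 1 cell. *Cirbp*, a cold-inducible RNA binding protein, had 51.4, 59.9 and 108 CPM outside sub-cluster 1, and *Hoxa7* had 64.2, 65.6 and 121 CPM. S phase genes summed to slightly more in AA+Ab than in AA, by a log2 ratio of 0.18 (0.14 to 0.22), with 17 of the 20 above 0.

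The third comparison, of AA+Ab with Neg, had 8 genes (0.123%) at least 2-fold higher and 116 (1.79%) at least 2-fold lower, or 12 (0.188%) and 46 (0.720%), 0.908% in all, outside sub-cluster 1. *Hoxd8*, *Pglyrp2*, *Cd74*, the invariant chain of MHC class II, and *Cxcl9* had the 4 highest log2 ratios, 1.77, 1.49, 1.40 and 1.20. The interferon list had a log2 ratio of −0.03 (−0.13 to 0.08). *Shh*, a marker of the rule, had a log2 ratio of 0.85, short of 2-fold, which is a description only. The 3 comparisons share libraries with each other, so their values are not independent.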

How the data were processed

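Pooled dorsal skin was digested with collagenase and profiled with the 10x 3′ v3.1 kit. Per the labels and the study's methods, the authors aligned reads to mm10 and made UMI counts per gene and barcode with Cell Ranger 7.2.0. The deposited counts are raw. The annotation release is not given in the sources used here. The cell and gene lists that go with each matrix hold names only.

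Total UMIs per library were 121289374 (Neg), 137290217 (AA) and 141998364 (AA+Ab), over 6965, 10879 and 10507 barcodes. The limits on barcodes were 10% mitochondrial UMIs and 200 genes, which kept 6582, 10433 and 9832. Members and gene lists were chosen with earlier results of these data known. *Krt71* and *Krt35* cells had at least 3 UMIs of that gene (*Krt71* cells at most 2 of *Krt35*) and no *Ptprc*. T-like and fibroblast-like cells had a UMI in at least 3 of 6 and 4 of 6 markers.

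UMIs were summed per library and scaled to CPM. Intervals were exact Poisson, Clopper-Pearson or conditional binomial at 95%. A gene was tested at a mean of at least 20 CPM and called at 2-fold. A count of 0 was set to a floor of 3 counts in ratios. Named genes were the rule markers, genes of 20 lists (those past 2-fold, else those with the highest CPM), the 15 genes with the highest ratio to other keratinocytes and the 10 most extreme each way in a comparison. *Dkk1*, *Nog*, *Grem1*, *Hhip*, *Smo*, *Axin2*, *Hoxa7*, *Cirbp*, *Tlx3* and leading genes of sub-clusters were named after their values were seen, as were other list genes given for their role.

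To find doublets, every library was compared with 2 simulated ones per cell (20 principal components, 30 neighbours) and taken at 0.8% per 1000 barcodes, and were kept in the values. They were 11.0%, 12.2% and 11.4% of matrix cells in Neg, AA and AA+Ab. Sub-clusters came from 2000 variable genes, 15 principal components, 15 neighbours and Leiden resolution 0.6. The scripts were tested on simulated data. Python 3.11.15 was used with numpy 2.4.6, scipy 1.17.1, pandas 2.3.3, scikit-learn 1.9.0, scanpy 1.11.5 and matplotlib 3.10.9. Some genes of the lists are not reported here.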

Additional observations from a re-analysis of the deposited data

Results flagged for a closer look

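A pair of gene lists moved in opposite directions in the matrix cells and in another class of keratinocytes of the same libraries. The 6 stress keratins and alarmins had a log2 ratio of AA to Neg of 0.3576 in matrix cells (758 to 971 CPM) and −1.6013 in *Krt71* cells (214 to 70.6 CPM). In matrix cells *Krt17*, which the outer root sheath also expresses, made up most of the sum at 723 CPM in Neg and 929 CPM in AA. The 3 genes of the CXCL12 axis had a log2 ratio of AA+Ab to Neg of −1.1868 in matrix cells (25.5 to 11.2 CPM) and 0.1497 in other keratinocytes (104 to 115 CPM). The classes nearest to the matrix cells were also lower, with −0.95 (−1.29 to −0.61) in *Krt35* cells and −0.57 (−0.80 to −0.34) in cells with 2 markers. With 1 library per group, these differences between cell classes were not tested. Outside sub-cluster 1 the CXCL12 list had 11.6 CPM in Neg and 5.50 CPM in AA+Ab, a log2 ratio of −1.08 (−1.83 to −0.36).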

How the results depend on the processing

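No paired analysis was possible because each group is 1 library. The share of matrix cells turned direction when the rule was applied at 5000 UMIs per cell, with log2 ratios of 0.1124 (AA to Neg) and 0.4566 (AA+Ab to Neg). That setting, which leaves 236 cells, gave 710, 504 and 705 genes past 2-fold for AA to Neg, AA+Ab to AA and AA+Ab to Neg. A minimum of 5 CPM gave 341, 335 and 423, a minimum of 100 CPM gave 14, 25 and 29, and no minimum gave 2575, 2323 and 2769. For AA to Neg, 2 of 5 markers gave 143 genes and a denominator without mitochondrial, ribosomal and hemoglobin genes gave 127. Leaving out sub-cluster 1 gave 32 (AA to Neg) and 58 (AA+Ab to Neg). The interferon ratio of AA to Neg was 0.79 to 1.24 over all settings, the highest, 1.2363, at 5000 UMIs. For AA+Ab to AA it was −1.0059 with *Krt71* and *Krt35* at 0, −0.9812 without doublets, −1.2728 at 5000 UMIs, −1.1314 as a mean over cells and −1.0335 without sub-cluster 1. For AA+Ab to Neg it was −0.1444, −0.2547 and −0.1856 without doublets, as a mean over cells and without sub-cluster 1. The MHC class I ratio turned to −0.2122 (AA to Neg) with 2 of 5 markers and to 0.2371 (AA+Ab to Neg) without sub-cluster 1. The S phase ratio of AA to Neg turned to −0.0611 with both keratins at 0, −0.2195 at 5000 UMIs, −0.0844 as a mean over cells and −0.1076 without sub-cluster 1, and that of AA+Ab to Neg to −0.0338 at 5000 UMIs. The immediate-early ratio of AA to Neg turned to −0.0674 with 2 of 5 markers, −0.0088 with both keratins at 0 and −0.0452 with both at most 10. The cause of these changes was not tested. Leaving out sub-cluster 1 and leaving out the top cell of each gene were chosen after seeing the data. No difference between groups can be separated from a difference between single libraries. Values of genes with a mean under 20 CPM rest on few transcripts. Of the counts of genes past 2-fold, they entered only those at a minimum of 5 CPM and at no minimum. They also entered the list sums, the counts of interferon genes above or below 0, and levels given for some single genes.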

Other observations

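The summed levels of genes of cell death and of immune privilege differed little between libraries. *Ripk1*, a kinase of cell death signalling, had 14.96 CPM in matrix cells of Neg, 14.8 in AA and 12.1 in AA+Ab. The 12 genes of cell death and the p53 response summed to 557, 514 and 507 CPM. Of these, 0 of the 7 tested passed 2-fold in any comparison, where 1.14% to 1.91% of all tested genes did. The 12 genes of immune privilege and checkpoints summed to 743, 715 and 702 CPM. Only 2 of them had enough transcripts to be tested, and 2 in each library had none at all. *Cxcl12* had 5.63, 6.17 and 1.19 CPM and its receptor *Cxcr4* had 1.41, 1.73 and 2.38 CPM, all under the minimum used for tests.

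Some sums rested on a few cells. *Tchh*, the inner root sheath protein trichohyalin, had 73.2, 91.3 and 42.1 CPM, with 84.9%, 91.1% and 53.2% of its transcripts in 1 cell of each library. *Igkc*, an immunoglobulin chain, had 4.05, 5.40 and 47.2 CPM, with 89.2% of the AA+Ab transcripts in 1 cell.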
